A study of Mus musculus with 8 samples.

Results

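Axon guidance ligands and receptors were followed in the neural retina of 3-week-old mice without MFP2, the peroxisomal β-oxidation enzyme encoded by Hsd17b4. The genes were chosen by symbol, with earlier results of these data known. They were the semaphorins of classes 3 to 7, the plexins, the neuropilins Nrp1 and Nrp2, the Eph receptors and the ephrins. The Slit ligands, the Robo receptors, the netrins, the Unc5 receptors and Dcc were chosen as well. Of 43472 symbols in the count tables, 73 were chosen in this way. Protein-coding genes made up 70 of them, and the other 3 were the antisense transcripts Plxna4os1, Plxna4os2 and Plxna4os3. The Mfp2-/- group comprised 4 mice of heterozygous parents that lacked MFP2 in every cell of the body. The control group comprised 3 Mfp2+/+ mice and 1 Mfp2+/- mouse, which was control replicate 2. All 8 mice were C57BL/6J, and each library was made from the pooled retinas of 1 mouse with a 3′ mRNA kit, which reads only the end of each transcript.

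Axon guidance cues are secreted or membrane-bound proteins that attract or repel growing neurites. Semaphorins act through plexins, which bind the secreted class 3 members together with neuropilins, ephrins act through Eph receptors and can also signal back into the cell that carries them, Slits act through Robo receptors, and netrins act through Dcc and Unc5 receptors. In the developing retina these families sort ganglion cell axons at the optic disc and chiasm, map them in the brain, and confine amacrine and ganglion cell dendrites to layers of the inner plexiform layer. Several remain expressed in the mature retina, in neurons, Müller glia and vessels.

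The labels were checked first with Hsd17b4, which had 1, 0, 1 and 0 counts in Mfp2-/- retinas and 47, 20, 78 and 37 counts in control retinas. Counts in genes per library ranged between 1895485 and 2826553 in Mfp2-/- retinas and between 2340974 and 3226187 in control retinas. Levels are given as counts of a gene per 1000000 counts in all genes (CPM), with library sizes scaled by the TMM method. The 10 rod markers, such as rhodopsin, summed to 1376 to 2003 CPM in Mfp2-/- retinas and to 42352 to 51904 CPM in control retinas. Of 11 tested microglia and macrophage markers 11 rose, as did 7 of 7 gliosis markers. Several had few control counts, such as C4b (283 counts in Mfp2-/- and 3 in control retinas) and Timp1 (145 and 5). These could be tested only through their Mfp2-/- counts, so the 11 of 11 and 7 of 7 partly reflect which genes were tested. A rise was also seen in 7 of 10 Müller glia markers, 2 of 4 astrocyte markers and 1 of 7 endothelial markers, which was Kdr. The 2 astrocyte markers were Gfap, also among the gliosis markers, and Aldh1l1, while S100b and Aqp4 did not pass the test used below. Among neurons, 7 of 10 bipolar cell markers rose and 1 fell, 5 of 10 ganglion cell and 3 of 10 amacrine cell markers rose, 1 of 6 horizontal cell markers fell, and 6 of 8 cone markers fell and 1 rose. Over all genes tested, 13.8% rose and 13.2% fell, and the endothelial and horizontal cell markers were near these shares. From counts of whole retina alone, fewer cells of a type and less RNA per cell cannot be told apart. For photoreceptors, the paper counted nuclei in mice of the same age and reports a normal number, with more apoptotic photoreceptors. The part of the cell types above in the results below was not tested. Mfp2-/- replicates 2 and 3 stood apart from the other libraries. The share of reads in no gene was 27.5, 10.8, 15.7 and 28.0% in Mfp2-/- replicates 1 to 4 and 27.1, 28.3, 22.6 and 29.9% in control replicates 1 to 4. The 7 lens markers, among them the crystallin gene Cryaa and Mip, summed to 1703, 5385, 3031 and 284 CPM in Mfp2-/- retinas and to 1184, 612, 457 and 279 CPM in control retinas, and none of the 7 was at 0. Values without Mfp2-/- replicates 2 and 3 are therefore given beside the results below that rest on them.

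More of the axon guidance genes rose than fell in Mfp2-/- retinas. Of the 73 genes, 57 had enough counts to be tested with edgeR's quasi-likelihood test, and 22 of them (38.6%) passed an adjusted p of 0.05 over all genes, of which 20 rose and 2 fell. Over all 12516 genes tested, 27% passed, 13.8% upward and 13.2% downward. The libraries of the 2 groups did not overlap for 24 of the 57 genes, with 22 higher and 2 lower in Mfp2-/- retinas, whereas over all genes 30.9% did not overlap, 15.1% higher and 15.8% lower. The median log2 fold change, Mfp2-/- over control, was 0.48 for the 57 genes and -0.0040 for all genes tested. Of the genes tested, 46 had a positive and 11 a negative fold change. Of 30 ligands 9 rose and 1 fell, and of 27 receptors 11 rose and 1 fell. By family, the median was highest in the ephrins at 0.76 and the plexins at 0.72, and lowest in the netrin receptors at 0.07.

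**Figure D1:**
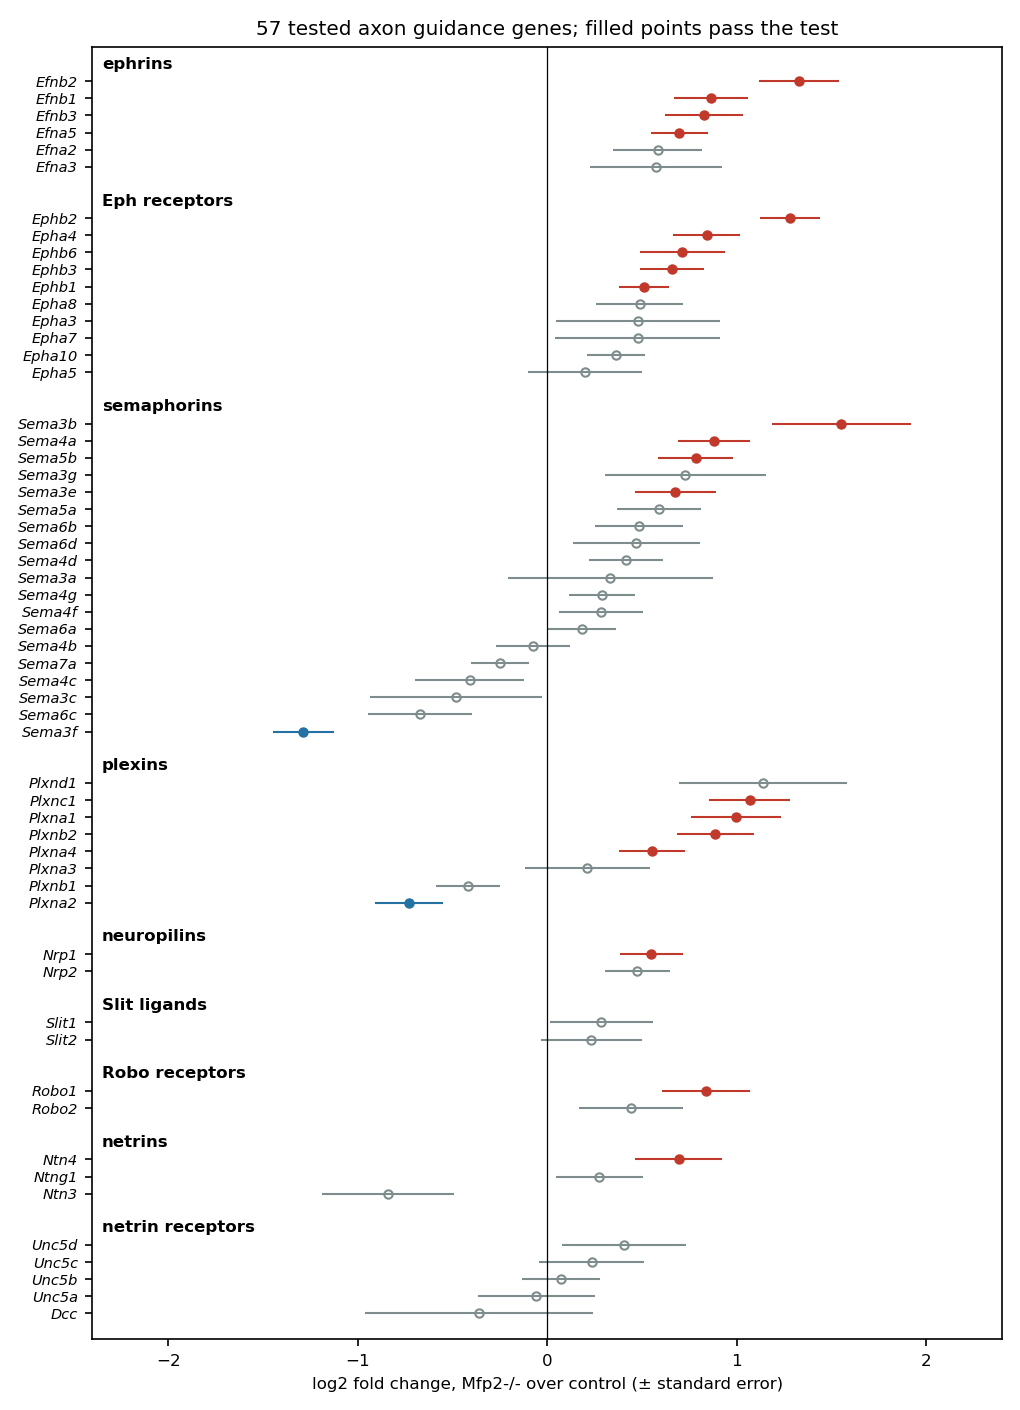
Log2 fold change of the 57 tested axon guidance genes in Mfp2-/- over control retinas, by family, with bars for the standard error. Filled points passed the test, and 20 of these 22 lie to the right of 0, with Sema3f and Plxna2 to the left.

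Without Mfp2-/- replicates 2 and 3, which leaves 2 Mfp2-/- and 4 control libraries, 25 of 57 axon guidance genes passed, of which 23 rose and 2 fell, against 26.1% of 13044 genes in all, 13.3% upward and 12.8% downward. That fit kept all controls, among them control replicate 3, whose share of reads in no gene was the lowest of the controls (22.6%). In all, 15 genes passed both with all libraries and without Mfp2-/- replicates 2 and 3. Of the others, 10 passed without them and not with all libraries, and 7 passed with all libraries and not without them. The 7 were Efnb3, Ephb3, Ephb6, Ntn4, Plxna4, Robo1 and Sema5b, all with positive fold changes in both fits. Without the 2 libraries the log2 fold change was 0.54 for Ephb3, 0.53 for Ephb6, 0.43 for Ntn4, 0.54 for Plxna4 and 0.58 for Sema5b (edgeR adjusted p = 0.0753, 0.112, 0.252, 0.0841 and 0.0878). It was 0.64 for Efna5, 0.52 for Ephb1 and 0.77 for Sema4a, which passed with and without them (edgeR adjusted p = 0.0252, 0.0338 and 0.0297). Without control replicate 2, the Mfp2+/- mouse, 17 of the genes passed, of which 15 rose and 2 fell, while over all 12820 genes tested 19.3% passed, 9.38% upward and 9.92% downward.

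The ephrins and Eph receptors of class B rose together. All 3 ephrin-B ligands and all 4 tested EphB receptors passed, and for each of these 7 genes the 4 Mfp2-/- libraries lay above the 4 control libraries. Their median log2 fold change was 0.83, beside 0.43 for the other 50 genes, of which 13 rose and 2 fell. Without Mfp2-/- replicates 2 and 3, 4 of the 7 passed, Efnb1, Efnb2, Ephb1 and Ephb2. The classes A and B were set apart here after the values were seen. Efnb2, a transmembrane ligand that steers ganglion cell axons at the optic chiasm and marks arterial endothelium, had 49.2, 50.4, 43.7 and 30.3 CPM in Mfp2-/- retinas and 17.7, 12.6, 21.1 and 16.9 CPM in control retinas. Its lowest Mfp2-/- library, replicate 4, was still above the highest control library, replicate 3. Its log2 fold change over control was 1.33 ± 0.21 (SE, adjusted p = 0.00100), and 1.20 without Mfp2-/- replicates 2 and 3 (adjusted p = 0.00176). Ephb2, a receptor tyrosine kinase that binds ephrin-Bs, had 36.2, 50.9, 38.0 and 46.0 CPM in Mfp2-/- retinas and 17.0, 19.3, 16.3 and 17.6 CPM in control retinas. The lowest Mfp2-/- library, replicate 1, was well above the highest control library, replicate 2. This gene had the smallest adjusted p among the 57, with a log2 fold change of 1.28 ± 0.16 (adjusted p = 2.1e-04), and 1.22 without Mfp2-/- replicates 2 and 3 (adjusted p = 2.3e-04).

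The promoters of Efnb2 and Ephb2 are shown as those of the ligand and the receptor with the smallest adjusted p among rising genes with an entry in RefSeq's promoter table. Each sequence runs from 250 bases before to 50 bases after the RefSeq start on GRCm38.p6, 5′ to 3′ on the strand of the gene, and capitals mark CG dinucleotides. The Efnb2 promoter lies at chr8:8661193-8661492 on the minus strand with 35 CG dinucleotides, and the Ephb2 promoter at chr4:136835963-136836262 on the minus strand with 24.
Efnb2: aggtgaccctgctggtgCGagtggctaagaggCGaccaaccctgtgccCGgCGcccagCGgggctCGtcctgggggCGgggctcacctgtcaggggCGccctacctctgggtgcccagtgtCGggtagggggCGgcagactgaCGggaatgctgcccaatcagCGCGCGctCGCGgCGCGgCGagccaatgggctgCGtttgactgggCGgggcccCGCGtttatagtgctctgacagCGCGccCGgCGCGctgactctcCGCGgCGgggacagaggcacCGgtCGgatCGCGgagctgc
Ephb2: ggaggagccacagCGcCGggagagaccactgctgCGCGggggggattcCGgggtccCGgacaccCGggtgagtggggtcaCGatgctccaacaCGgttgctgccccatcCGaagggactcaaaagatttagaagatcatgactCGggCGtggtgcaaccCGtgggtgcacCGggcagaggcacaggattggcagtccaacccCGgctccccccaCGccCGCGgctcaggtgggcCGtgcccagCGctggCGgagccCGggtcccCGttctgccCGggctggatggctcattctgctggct
Tested members had an entry in 48 cases. Where a member had several entries, the entry nearest its gene start was used, while the values for all genes count every entry. Their promoters held a median of 23.5 CG dinucleotides and 67.0% G and C, beside 21.0 and 61.3% for the promoters of all genes tested. The photoreceptor core motif TAATCC, searched on both strands, was in 0 of the 48, in 5.66% of the promoters of all genes tested and in 7.06% of all 32851 promoters. The STAT motif TTCNNNGAA was in 3 of the 48, those of Efna3, Epha3 and Sema3e, in 6.51% of those of all genes tested and in 8.30% of all promoters. The AP-1 motif TGANTCA was in 1 of the 48, in 4.6% of those of all genes tested and in 7.81% of all promoters. These matches are letters in a window and were not set against binding data.

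The other class B genes rose by less. Efnb1, a ligand on the X chromosome, had 48.1, 64.6, 60.4 and 45.6 CPM in Mfp2-/- retinas and 25.6, 36.8, 35.5 and 22.1 CPM in control retinas. Efnb3, best known as a midline barrier for corticospinal axons, had 23.5, 36.8, 39.0 and 26.3 CPM in Mfp2-/- retinas and 15.9, 14.8, 19.2 and 20.4 CPM in control retinas. Both were higher in every Mfp2-/- library than in any control library. The log2 fold change was 0.86 ± 0.20 for Efnb1 (adjusted p = 0.00855) and 0.83 ± 0.21 for Efnb3 (adjusted p = 0.0139), and without Mfp2-/- replicates 2 and 3 Efnb1 kept its call (adjusted p = 0.0318) while Efnb3 did not pass (0.49, adjusted p = 0.105).

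Among the receptors, Ephb1 sends ganglion cell axons to the same side of the brain and had 43.2, 43.4, 43.4 and 46.0 CPM in Mfp2-/- retinas and 26.7, 29.2, 34.3 and 33.2 CPM in control retinas. The Mfp2-/- libraries were nearly equal, and all lay above control replicate 3, the highest control. Its log2 fold change was 0.51 ± 0.13 (adjusted p = 0.0161), with an adjusted p of 0.0532 without control replicate 2. Ephb3, which guides axons to the optic disc together with Ephb2, had 22.8, 28.2, 30.4 and 27.7 CPM in Mfp2-/- retinas and 14.8, 18.0, 16.0 and 20.4 CPM in control retinas, with a log2 fold change of 0.66 ± 0.17 (adjusted p = 0.0155). Its groups were separate, but it did not pass without Mfp2-/- replicate 3 (adjusted p = 0.0518). Ephb6, a receptor without kinase activity, had 20.4, 38.3, 25.0 and 29.2 CPM in Mfp2-/- retinas and 17.0, 19.8, 18.9 and 12.8 CPM in control retinas. Replicate 2 was the highest of the Mfp2-/- libraries and replicate 1 lay just above the controls. On the log2 scale the fold change was 0.71 ± 0.22 (adjusted p = 0.0374), and the call was lost when any library other than Mfp2-/- replicate 1 was left out, with adjusted p up to 0.100.

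Of 6 tested EphA receptors 1 rose (16.7%), near the 13.8% of all genes tested that rose. Of 3 tested ephrin-A ligands 1 rose (33.3%). Fold changes were positive for all 9, but most of these genes did not pass. Epha4, which binds ephrins of both classes, had 165, 98.9, 128 and 169 CPM in Mfp2-/- retinas and 69.4, 86.7, 78.4 and 79.2 CPM in control retinas. Replicates 1 and 4 were the highest and replicate 2 the lowest of the Mfp2-/- libraries, yet replicate 2 was above every control. The log2 fold change was 0.84 ± 0.18 (adjusted p = 0.00573), and 1.09 without Mfp2-/- replicates 2 and 3 (adjusted p = 1.4e-05). Efna5, a membrane-anchored ligand that takes part in retinotopic mapping, had 30.6, 27.7, 34.0 and 27.0 CPM in Mfp2-/- retinas and 19.1, 16.2, 18.9 and 19.4 CPM in control retinas. The groups were separate, with a log2 fold change of 0.70 ± 0.15 (adjusted p = 0.00661). Efna2, its partner in the map and the most abundant ephrin that did not pass, had 26.0, 29.8, 25.0 and 18.6 CPM in Mfp2-/- retinas and 19.1, 14.8, 21.1 and 10.7 CPM in control retinas, where replicate 4 of Mfp2-/- overlapped control replicates 1 and 3 (log2 fold change 0.58, adjusted p = 0.0887). Epha10 did not pass (adjusted p = 0.101) although its groups were separate, with a lowest Mfp2-/- library of 29.0 CPM and a highest control library of 28.2 CPM.

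The levels of 3 EphA receptors went apart between the Mfp2-/- libraries. Epha5, a receptor of temporal ganglion cell axons and the most abundant Eph receptor that did not pass, had 165, 50.9, 82.7 and 143 CPM in Mfp2-/- retinas and 84.2, 106, 88.4 and 107 CPM in control retinas. Epha7, also a receptor of ephrin-As, had 154, 25.2, 57.0 and 126 CPM in Mfp2-/- retinas and 58.2, 81.3, 48.7 and 74.0 CPM in control retinas, and Epha3, of the same kind, had 21.4, 3.53, 10.01 and 22.3 CPM in Mfp2-/- retinas and 12.3, 12.1, 8.64 and 8.99 CPM in control retinas. For each of the 3, Mfp2-/- replicates 1 and 4 were above all controls and Mfp2-/- replicate 2 was below all controls. With all libraries the log2 fold changes were 0.20, 0.48 and 0.48 (adjusted p = 0.659, 0.442 and 0.438, in the order Epha5, Epha7, Epha3). Without Mfp2-/- replicates 2 and 3 all 3 passed, with log2 fold changes of 0.67, 1.10 and 1.06 (adjusted p = 0.00231, 3.6e-04 and 0.00495). That fit left libraries out of the Mfp2-/- group only.

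**Figure D2:**
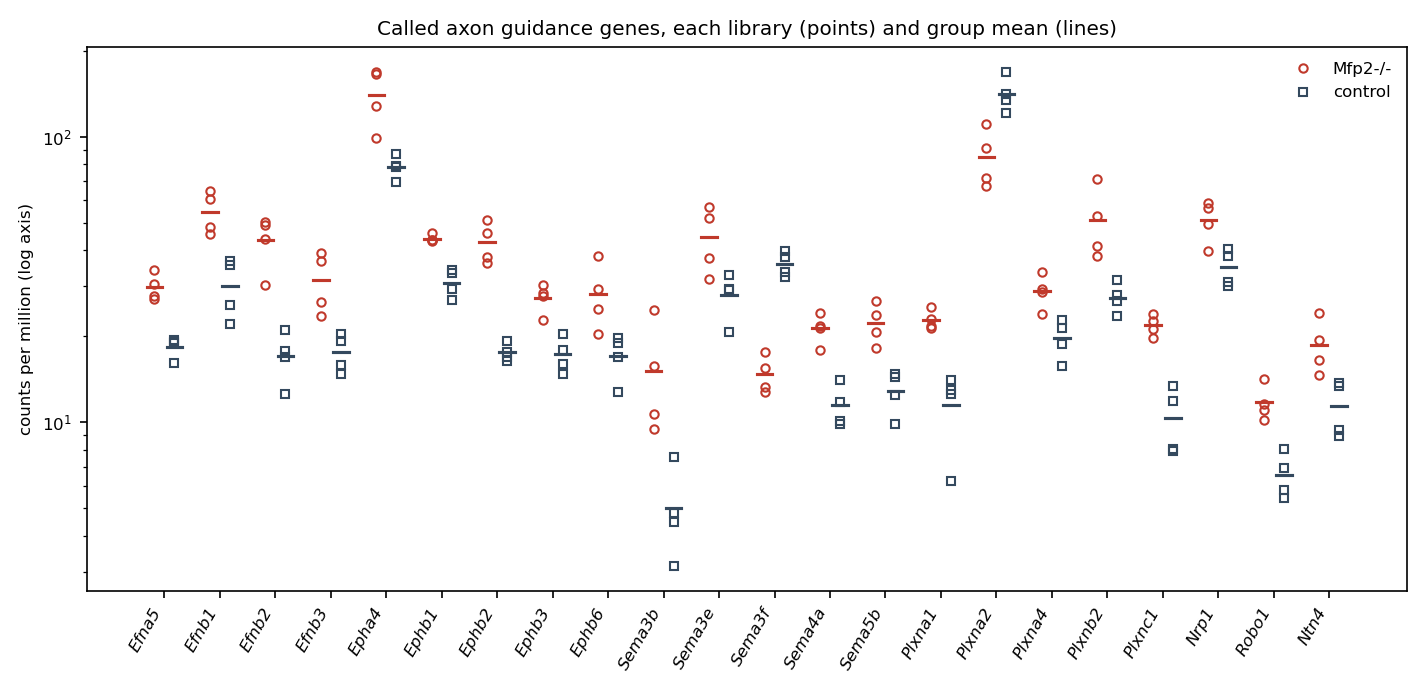
Level in CPM (log axis) of the 22 genes that passed the test, with a point for each of the 4 Mfp2-/- and 4 control libraries and a line for each group's mean. The groups are apart for all but Nrp1 and Sema3e, and Sema3f and Plxna2 are the genes with the lower level in Mfp2-/- retinas.

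Of 19 tested semaphorins, 4 rose and 1 fell, so that 26.3% passed, near the 27% of all genes tested. The fall was that of Sema3f, a secreted semaphorin that repels neurites through Nrp2. It had 15.5, 17.7, 13.3 and 12.8 CPM in Mfp2-/- retinas and 32.2, 33.7, 39.7 and 38.0 CPM in control retinas. The highest Mfp2-/- library, replicate 2, was well below the lowest control library, replicate 1. On the log2 scale the fold change was -1.29 ± 0.16 (adjusted p = 2.3e-04), and -1.35 without Mfp2-/- replicates 2 and 3 (adjusted p = 2.1e-04). Sema3b, a secreted semaphorin of the same class and the one with the largest rise among the 57 tested genes, had 15.8, 24.7, 10.7 and 9.49 CPM in Mfp2-/- retinas and 7.59, 3.14, 4.80 and 4.49 CPM in control retinas. Replicate 2 was the highest Mfp2-/- library and the groups were separate. On the log2 scale the fold change was 1.55 ± 0.37 (adjusted p = 0.0108), and 1.31 without Mfp2-/- replicates 2 and 3 (adjusted p = 0.0162). Both genes lie on chromosome 9 of GRCm38, Sema3b at 107597674 to 107609229 and Sema3f at 107681500 to 107710475, on the minus strand.

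Sema3e, the ligand of Plxnd1 on vessels and neurons, had 52.0, 31.8, 37.7 and 56.6 CPM in Mfp2-/- retinas and 32.9, 29.2, 29.1 and 20.7 CPM in control retinas. Here the groups overlapped, since Mfp2-/- replicate 2 was below control replicate 1. Its log2 fold change was 0.68 ± 0.21 (adjusted p = 0.0381), and the call was lost in 5 of 8 fits that left out 1 library, with adjusted p up to 0.0942, while without Mfp2-/- replicates 2 and 3 it was 0.95 (adjusted p = 0.00159). Sema4a, a membrane semaphorin whose loss leads to photoreceptor degeneration in mice, had 21.8, 24.2, 21.4 and 17.9 CPM in Mfp2-/- retinas and 10.1, 9.88, 14.1 and 11.8 CPM in control retinas. All Mfp2-/- libraries were above the controls, with a log2 fold change of 0.88 ± 0.19 (adjusted p = 0.00639). Sema5b, which with Sema5a confines neurites of the inner retina, had 20.7, 23.7, 26.7 and 18.3 CPM in Mfp2-/- retinas and 14.8, 9.88, 14.4 and 12.4 CPM in control retinas. The groups were separate and the log2 fold change was 0.78 ± 0.20 (adjusted p = 0.0145), but without Mfp2-/- replicate 3 the adjusted p was 0.0503. Sema5a itself had 129, 58.5, 93.7 and 105 CPM in Mfp2-/- retinas and 57.8, 72.7, 53.5 and 73.3 CPM in control retinas. Replicate 2 lay among the controls and the other Mfp2-/- libraries above them, and the gene passed without that library and without Mfp2-/- replicates 2 and 3 (0.86, adjusted p = 9.4e-04), not with all libraries (0.59, adjusted p = 0.0705).

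The other semaphorins did not pass with all libraries. Sema6a, a transmembrane ligand of Plxna2 and Plxna4 and the most abundant of them, had 122, 95.8, 103 and 159 CPM in Mfp2-/- retinas and 103, 121, 87.1 and 112 CPM in control retinas, with overlapping groups (log2 fold change 0.18, adjusted p = 0.478). Sema3a, a secreted ligand for Nrp1, had 26.0, 2.02, 7.01 and 16.8 CPM in Mfp2-/- retinas and 15.5, 10.3, 7.68 and 8.64 CPM in control retinas. Mfp2-/- replicates 1 and 4 were its highest libraries of the 8 and replicates 2 and 3 its lowest, so that it passed without Mfp2-/- replicates 2 and 3 (1.02, adjusted p = 0.0202) and not with them (0.33, adjusted p = 0.681). The other 11 that did not pass had log2 fold changes between -0.67 for Sema6c and 0.73 for Sema3g, with 6 positive and 5 negative values.

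The neuropilins, co-receptors of class 3 semaphorins, were both higher on average. Nrp1, which also binds vascular endothelial growth factor, had 56.2, 39.8, 49.4 and 58.8 CPM in Mfp2-/- retinas and 40.5, 31.0, 38.1 and 30.1 CPM in control retinas. The groups overlapped between Mfp2-/- replicate 2 and control replicate 1. Its log2 fold change was 0.55 ± 0.16 (adjusted p = 0.0307), and the call was lost in 5 of 8 fits that left out 1 library, with adjusted p up to 0.0955, while without Mfp2-/- replicates 2 and 3 it was 0.71 (adjusted p = 0.00600). Nrp2, the Sema3f co-receptor, had 33.0, 35.3, 35.4 and 47.1 CPM in Mfp2-/- retinas and 23.5, 27.8, 24.3 and 32.8 CPM in control retinas, with groups that were separate by a narrow margin (log2 fold change 0.48, adjusted p = 0.0610, and 0.56 without Mfp2-/- replicates 2 and 3, adjusted p = 0.0546).

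Of 8 tested plexins, the semaphorin receptors, 4 rose and 1 fell, so that 62.5% passed, beside 27% of all genes tested. Plxna2, which with Sema6a shapes starburst amacrine cell arbors, had 110.3, 67.1, 71.4 and 91.3 CPM in Mfp2-/- retinas and 121, 141, 135 and 169 CPM in control retinas. All Mfp2-/- libraries were below the controls, and replicate 1 came closest to them. The log2 fold change was -0.73 ± 0.18 (adjusted p = 0.0128), and -0.49 without Mfp2-/- replicates 2 and 3 (adjusted p = 0.0273). Its RefSeq promoter, the one of a falling gene with an entry, lies at chr1:194619579-194619878 on the plus strand, 1611 bases inside the gene start of the GENCODE annotation, and is given in the same form as those above.
Plxna2: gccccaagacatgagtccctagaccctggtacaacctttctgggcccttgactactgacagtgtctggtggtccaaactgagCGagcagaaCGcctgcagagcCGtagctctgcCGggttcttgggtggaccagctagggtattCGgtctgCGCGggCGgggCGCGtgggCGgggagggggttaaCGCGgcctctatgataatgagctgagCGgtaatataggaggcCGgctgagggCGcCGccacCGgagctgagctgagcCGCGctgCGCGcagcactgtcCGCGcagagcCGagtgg

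Plxnc1, the receptor of Sema7a, had 23.9, 19.7, 22.7 and 21.2 CPM in Mfp2-/- retinas and 11.9, 8.08, 13.4 and 7.95 CPM in control retinas. Plxna1, a receptor of several secreted and class 5 and 6 semaphorins, had 21.4, 21.7, 25.4 and 23.0 CPM in Mfp2-/- retinas and 13.0, 12.6, 14.1 and 6.22 CPM in control retinas. In both genes the groups were separate and the Mfp2-/- libraries lay close together. The log2 fold change was 1.07 ± 0.21 for Plxnc1 (adjusted p = 0.00409) and 1.00 ± 0.24 for Plxna1 (adjusted p = 0.0110), and both passed without Mfp2-/- replicates 2 and 3 (adjusted p = 0.00613 and 0.0224). Of the 9054 exon bases of Plxna1, 970 overlap an exon of Gm26811 on the other strand, and whether the counting used the strand is not given in the sources used here. Plxnb2, a receptor of class 4 semaphorins, had 41.4, 71.1, 52.7 and 38.3 CPM in Mfp2-/- retinas and 31.4, 26.5, 27.9 and 23.5 CPM in control retinas. Replicate 2 was its highest library, and all Mfp2-/- libraries exceeded the controls. The log2 fold change was 0.89 ± 0.20 (adjusted p = 0.00915), and 0.54 without Mfp2-/- replicates 2 and 3 (adjusted p = 0.0347).

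Plxna4, a receptor of Sema6a in the inner plexiform layer, had 23.9, 29.3, 28.7 and 33.6 CPM in Mfp2-/- retinas and 21.3, 18.9, 15.7 and 22.8 CPM in control retinas. The groups were separate with little room between Mfp2-/- replicate 1 and control replicate 4. Its log2 fold change was 0.55 ± 0.18 (adjusted p = 0.0395), but the call was lost in 6 of 8 fits that left out 1 library, with adjusted p up to 0.102. Plxnb1, the most abundant plexin that did not pass, had 26.3, 32.3, 26.7 and 25.9 CPM in Mfp2-/- retinas and 40.8, 31.9, 30.4 and 44.9 CPM in control retinas, and only Mfp2-/- replicate 2 reached into the range of the controls (log2 fold change -0.42, adjusted p = 0.0881). Plxnd1, the Sema3e receptor, had 4.22, 9.58, 9.01 and 2.92 CPM in Mfp2-/- retinas and 2.53, 4.49, 2.56 and 2.07 CPM in control retinas. Replicates 2 and 3 of Mfp2-/- were its highest libraries, and it did not pass (log2 fold change 1.14 ± 0.44, adjusted p = 0.0810), with 0.32 without these 2 libraries (adjusted p = 0.680).

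**Figure D3:**
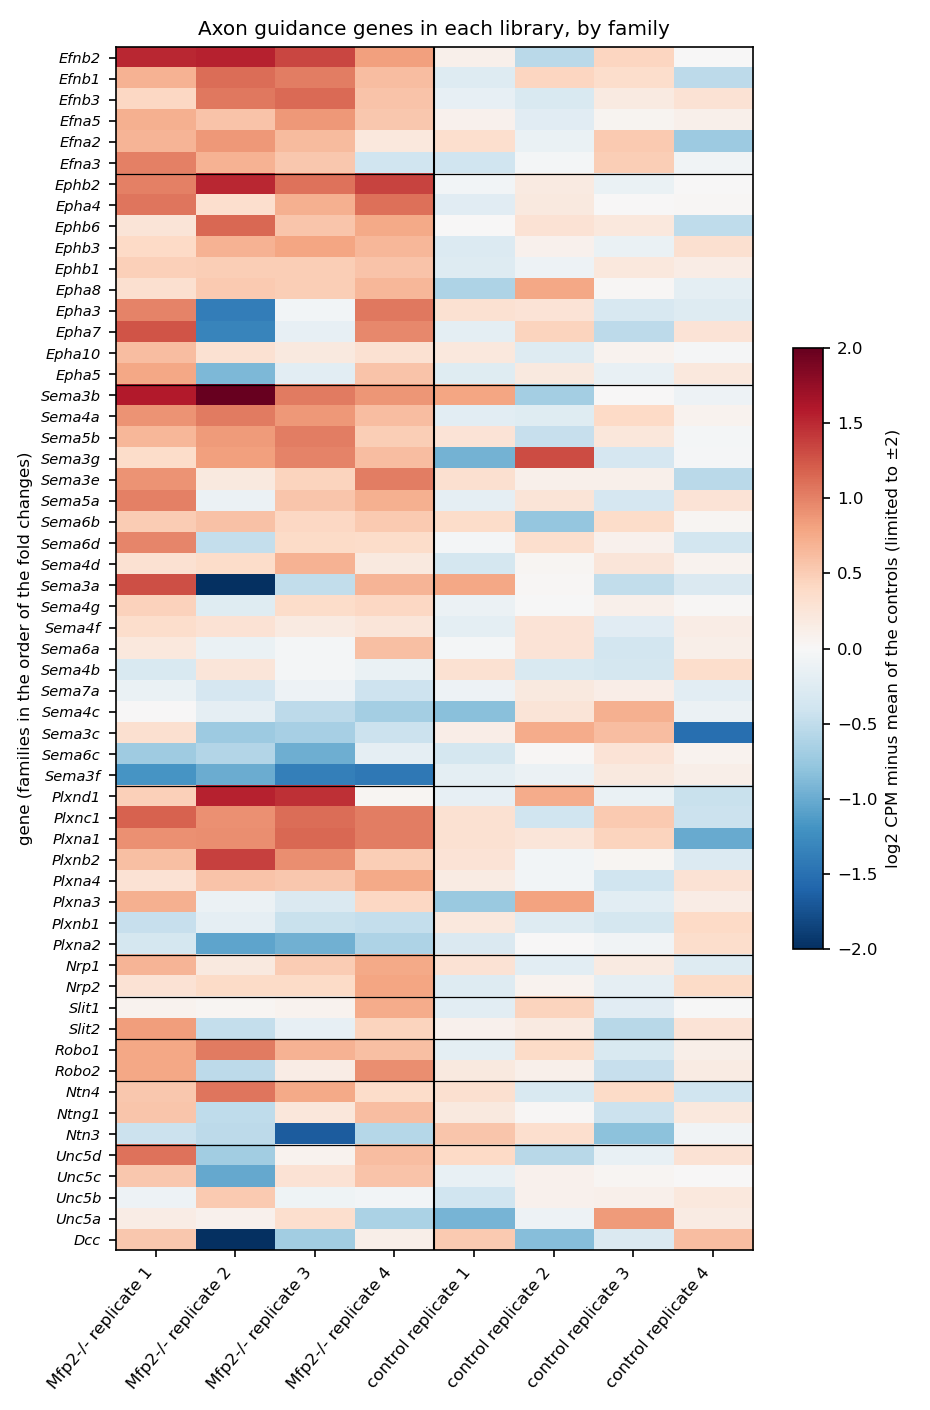
Log2 CPM of the 57 tested genes in each library minus the mean of the controls (the other 3 for a control library), with the Mfp2-/- libraries left of the line and the controls right of it, and colours limited to ±2. The ephrin-B and EphB genes are red in all 4 Mfp2-/- columns, while Epha3, Epha5, Epha7, Sema3a and Unc5c are red in Mfp2-/- replicates 1 and 4 and blue in replicate 2.

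Of the Slit ligands and Robo receptors, Robo1 alone passed with all libraries. It had 11.6, 14.1, 11.0 and 10.2 CPM in Mfp2-/- retinas and 5.78, 8.08, 5.44 and 6.92 CPM in control retinas. The groups were separate, with a log2 fold change of 0.84 ± 0.23 (adjusted p = 0.0216), and the call was lost without control replicate 1 or 3 (adjusted p up to 0.0654) and without Mfp2-/- replicates 2 and 3 (adjusted p = 0.0914). Robo2, the main Slit receptor of ganglion cells, had 112, 44.9, 72.4 and 125 CPM in Mfp2-/- retinas and 71.9, 68.7, 50.9 and 70.5 CPM in control retinas. Slit2, a repellent secreted in the retina, had 219.9, 87.8, 110.1 and 167 CPM in Mfp2-/- retinas and 129, 136, 92.2 and 142 CPM in control retinas. In both genes Mfp2-/- replicates 1 and 4 were above all controls and Mfp2-/- replicate 2 below them. With all libraries the log2 fold change was 0.44 for Robo2 and 0.23 for Slit2 (adjusted p = 0.258 and 0.543), and without Mfp2-/- replicates 2 and 3 it was 0.85 and 0.63 (adjusted p = 7.4e-04 and 0.0126). Slit1, a related repellent, had 7.73, 7.57, 7.67 and 12.8 CPM in Mfp2-/- retinas and 6.50, 9.43, 6.40 and 7.26 CPM in control retinas and did not pass (log2 fold change 0.29, adjusted p = 0.455), nor did it without Mfp2-/- replicates 2 and 3 (0.48, adjusted p = 0.312).

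The Slit2 promoter, at chr5:47982905-47983204 on the plus strand of GRCm38.p6, is shown as that of a long gene whose level went apart between the Mfp2-/- libraries, and with 30 CG dinucleotides its count lies between those of Efnb2 and Ephb2.
Slit2: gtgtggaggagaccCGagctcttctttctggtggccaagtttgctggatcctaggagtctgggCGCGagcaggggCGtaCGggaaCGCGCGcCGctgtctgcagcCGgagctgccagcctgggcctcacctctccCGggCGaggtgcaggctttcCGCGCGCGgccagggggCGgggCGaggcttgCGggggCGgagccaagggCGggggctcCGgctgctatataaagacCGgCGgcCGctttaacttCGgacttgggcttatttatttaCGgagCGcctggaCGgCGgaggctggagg

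Few genes of the netrin system passed. Of 3 tested netrins 1 rose, and of 5 tested receptors 0 passed with edgeR, where 0 also had an unadjusted p under 0.05 and 0 passed with DESeq2 or limma-voom. Ntn4, a laminin-related netrin of basement membranes, had 16.5, 24.2, 19.3 and 14.6 CPM in Mfp2-/- retinas and 13.4, 9.43, 13.8 and 8.99 CPM in control retinas. The lowest Mfp2-/- library, replicate 4, was just above the highest control. Its log2 fold change was 0.69 ± 0.23 (adjusted p = 0.0474), and the call was lost in 7 of 8 fits that left out 1 library, with adjusted p up to 0.122, and with DESeq2 and limma-voom. Ntng1, a membrane-anchored netrin that does not bind Dcc and the most abundant gene of the family, had 251, 119, 198 and 259.5 CPM in Mfp2-/- retinas and 188, 172, 135 and 189.8 CPM in control retinas. Again replicates 1 and 4 were the highest and replicate 2 the lowest of the 8 libraries, and it passed without Mfp2-/- replicates 2 and 3 (0.57, adjusted p = 0.00935) but not with them (0.27, adjusted p = 0.400). Ntn3, a secreted netrin, had 8.08, 7.57, 3.00 and 7.30 CPM in Mfp2-/- retinas and 15.2, 13.5, 7.04 and 10.7 CPM in control retinas, with overlap at control replicate 3 (log2 fold change -0.84, adjusted p = 0.0967, and -0.58 without Mfp2-/- replicates 2 and 3, adjusted p = 0.235).

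Among the netrin receptors, Unc5c, the most abundant, had 58.3, 19.2, 48.7 and 59.5 CPM in Mfp2-/- retinas and 36.8, 41.8, 40.7 and 40.1 CPM in control retinas. Unc5d, also a receptor for FLRT proteins, had 52.3, 14.6, 25.4 and 37.6 CPM in Mfp2-/- retinas and 30.0, 18.0, 22.4 and 28.4 CPM in control retinas. Both had their lowest library in Mfp2-/- replicate 2 and passed without Mfp2-/- replicates 2 and 3 (0.56 and 0.85, adjusted p = 0.0113 and 0.00913), not with them (adjusted p = 0.557 and 0.385). Dcc, the attractive netrin receptor, had 8.08, 0, 3.00 and 5.84 CPM in Mfp2-/- retinas and 7.22, 3.14, 4.48 and 7.61 CPM in control retinas, so that replicate 2 was at 0, which allows up to 1.51 CPM at 3 counts, while replicate 1 was the highest of the 8 libraries (log2 fold change -0.36 ± 0.60, adjusted p = 0.691). Without Mfp2-/- replicates 2 and 3 the sign turned, to 0.29 (adjusted p = 0.643). Unc5a and Unc5b had log2 fold changes of -0.06 and 0.07 and did not pass, nor did they without Mfp2-/- replicates 2 and 3, where the values were -0.29 and -0.10.

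Most genes that went apart between the Mfp2-/- libraries had long spans in the GENCODE annotation of GRCm38. The median span was 107 kb for the 57 tested genes and 25.1 kb for all 11799 tested genes with a span. A span over 300 kb, a limit chosen after the values were seen, was found in 14 of the 57. Of these 14, 3 rose (Ephb1, Plxna4 and Robo1) and 11 did not pass, and 9 of the 11 passed without Mfp2-/- replicates 2 and 3. The median deviation of the 14 from the mean log2 CPM of the controls (the other 3 for a control library) was 0.78, -0.52, 0.19 and 0.61 on the log2 scale in Mfp2-/- replicates 1 to 4 and 0.13, 0.10, -0.31 and 0.19 in control replicates 1 to 4. For the other 43 genes it was 0.45, 0.38, 0.50 and 0.49 in Mfp2-/- replicates 1 to 4 and -0.12, 0.04, 0.10 and 0.01 in control replicates 1 to 4. These medians were alike between the 4 Mfp2-/- libraries for the shorter genes and not for the longer ones, but single genes departed from this, as the shorter Epha7 and Plxnd1 went apart while the long Ephb1, Robo1 and Plxna4 were above the control mean in all 4. Across the 57 genes, which share each library, Spearman's rho between span and deviation was 0.36, -0.40, -0.14 and 0.31 in Mfp2-/- replicates 1 to 4 and 0.21, 7.8e-04, -0.38 and 0.25 in control replicates 1 to 4. Over all 11799 genes it was 0.14, -0.18, -0.08 and 0.11 in Mfp2-/- replicates 1 to 4 and -0.05, 0.06, -0.15 and 0.17 in control replicates 1 to 4. The libraries with a negative value for the 57 genes were those with the 3 lowest shares of reads in no gene, Mfp2-/- replicates 2 and 3 and control replicate 3, and over all genes control replicate 1 was negative as well. Whether that share has a part in the levels of the long genes was not tested. The fit without Mfp2-/- replicates 2 and 3 kept control replicate 3. For the long genes, genotype and this difference between libraries cannot be told apart in that fit.

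**Figure D4:**
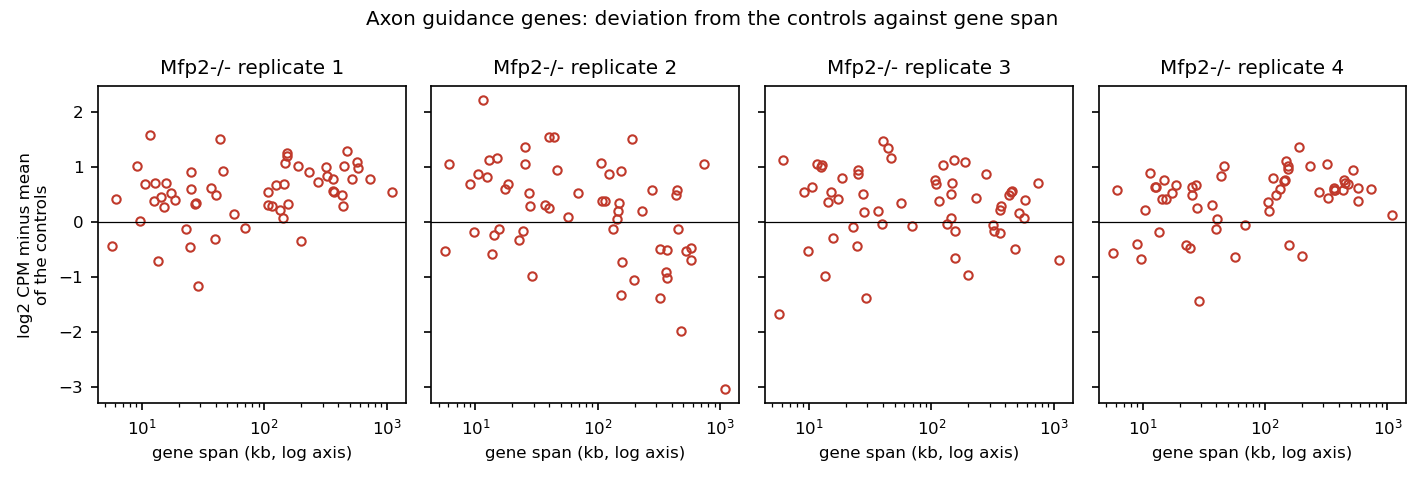
Deviation of the 57 genes from the control mean (log2 CPM) in each Mfp2-/- library against the span of the gene (kb, log axis). The longest genes lie above 0 in replicates 1 and 4 and mostly below 0 in replicate 2, where the lowest point is Dcc.

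**Figure D5:**
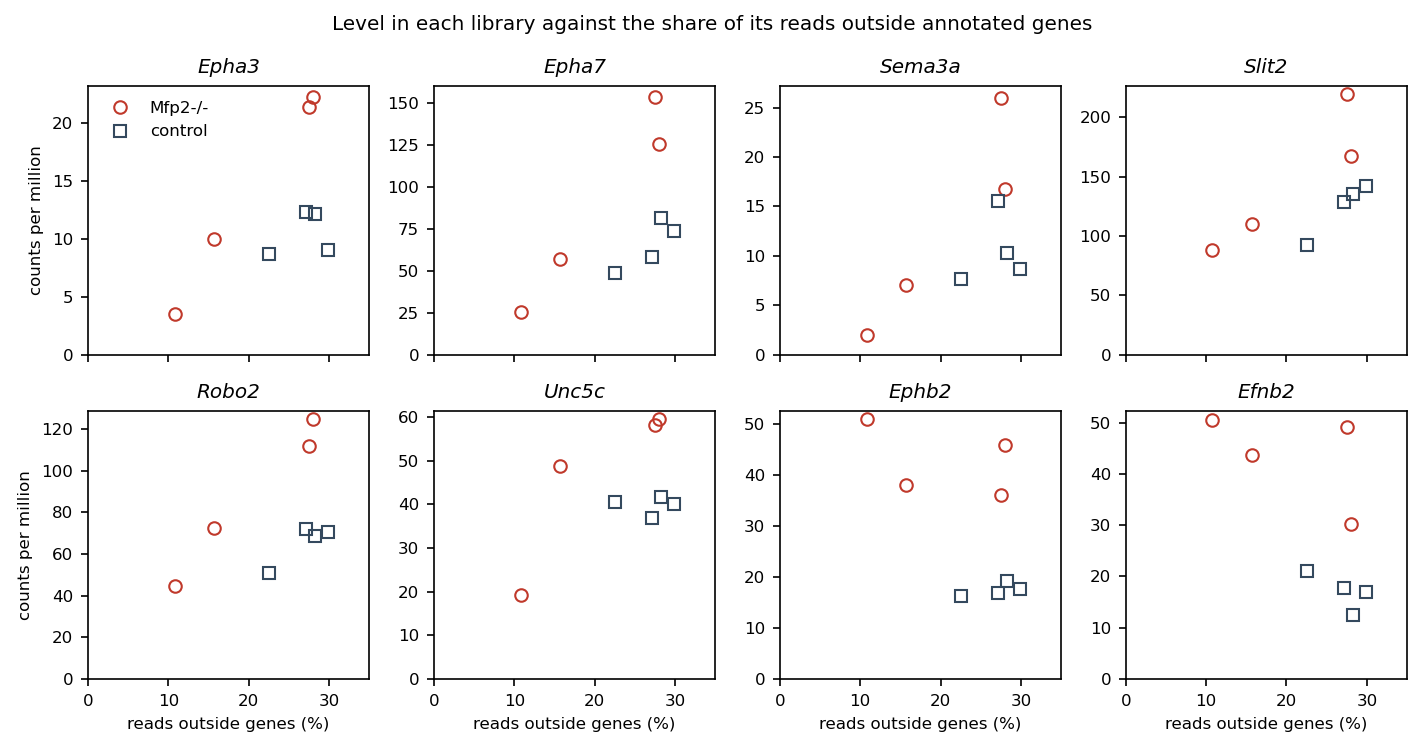
Level in CPM of 8 genes in each library against the share of that library's reads in no gene (%). Epha3, Epha7, Sema3a, Slit2, Robo2 and Unc5c have their lowest Mfp2-/- level in replicate 2, which has the lowest share (10.8%), while Ephb2 and Efnb2 are above the controls in all 4 Mfp2-/- libraries.

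The other 16 genes had too few counts for the test. They were Efna1, Efna4, Epha1, Epha2, Epha6, Ephb4, Ntn1, Ntn5, Ntng2, Plxna4os1, Plxna4os2, Plxna4os3, Plxnb3, Robo3, Sema3d and Slit3. Summed over the 4 libraries of each group, Efna1 had 47 counts in Mfp2-/- retinas and 14 counts in control retinas, a ratio of 3.50 per library size (95% exact binomial interval 1.89 to 6.88). Ephb4, the venous partner of Efnb2, had 33 counts in Mfp2-/- retinas and 12 in control retinas (ratio 2.87, 1.44 to 6.09), and Epha2, a receptor of ephrin-As, had 17 in Mfp2-/- retinas and 6 in control retinas (2.95, 1.11 to 9.15). Slit3 had 18 counts in Mfp2-/- retinas and 1 in control retinas, a ratio of 18.8 with an interval of 2.96 to 781. Plxna4os1 had 8 counts in Mfp2-/- retinas and 0 in control retinas. The ratio was 2.78 with the control group set to 3 counts, which takes the 8 counts as exact and so is not a lower limit. The intervals of Efna4, Epha6, Ntn1, Ntn5, Robo3 and Sema3d included 1, Plxna4os2 and Plxna4os3 were at 0, and Epha1, Ntng2 and Plxnb3 had 3 counts or fewer in all. Without Mfp2-/- replicates 2 and 3, Efna1 had 14 counts in Mfp2-/- retinas and 14 in control retinas (ratio 1.97, 0.871 to 4.46), and the ratio was 3.12 for Ephb4 (1.44 to 7.05), 2.96 for Epha2 (0.940 to 10.1) and 13.8 for Slit3 (1.77 to 622), so that the intervals of Efna1 and Epha2 then included 1. That of Epha6 then did not (2.09, 1.01 to 4.31), and Plxna4os1 had 3 counts in Mfp2-/- retinas. Such intervals rest on counts summed over the mice of a group, so they leave out the spread between mice. The reads were not collapsed by molecule, so even the counting error may be larger than the intervals show. With every gene with a count in the fit, 22 of 71 passed, beside 15.8% of 22095 genes. The filter had kept 57 of the 71 but 12516 of the 22095, so these shares rest on unlike mixes of low-count genes. Of the 22 that passed, 20 were the same as with the filter, Efna1 and Slit3 were added, and Ntn4 and Plxna4 no longer passed.

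Other genes of axon guidance, listed from general knowledge with earlier results of these data known, also rose more often than they fell. Of 103 tested among 111 listed, 36 rose and 4 fell, with a median log2 fold change of 0.41, beside 13.8% upward and 13.2% downward over all genes. Other cues, receptors and adhesion molecules rose in 15 and fell in 1 of 39 cases, and intracellular effectors rose in 21 and fell in 3 of 64. Gas1, a co-receptor of Sonic hedgehog, averaged 80.3 ± 15.9 CPM in Mfp2-/- retinas and 31.2 ± 4.81 CPM in control retinas (SD, n = 4 each, log2 fold change 1.36, edgeR adjusted p = 3.5e-04). Wnt5a, a guidance cue of the Wnt family, averaged 26.7 ± 1.90 CPM in Mfp2-/- retinas and 8.22 ± 2.78 CPM in control retinas (log2 fold change 1.68, edgeR adjusted p = 4.0e-04). Of the effectors, the small GTPase gene Rras and the exchange factor gene Trio had log2 fold changes of 1.48 and 1.06 (edgeR adjusted p = 5.6e-04 and 0.00118). The 4 genes that fell were Dpysl3, a collapsin response mediator, Dscaml1, an adhesion molecule of rod circuits, the cofilin kinase gene Limk2 and Farp2, an exchange factor bound by plexin-A1. Dpysl3 averaged 158 ± 12.1 CPM in Mfp2-/- retinas and 443 ± 29.1 CPM in control retinas (log2 fold change -1.49, edgeR adjusted p = 9.2e-06), and the log2 fold changes of Dscaml1, Limk2 and Farp2 were -1.36, -0.63 and -0.68 (edgeR adjusted p = 0.00338, 0.0148 and 0.0290). Without Mfp2-/- replicates 2 and 3, 42 of 103 passed, 38 upward and 4 downward, beside 26.1% of all genes in that fit, 13.3% upward and 12.8% downward. Without control replicate 2, 26 of 105 passed in place of 40, in a fit where calls over all genes numbered 2475 in place of 3377 (19.3% and 27%).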

How the data were processed

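Neural retinas of 4 Mfp2-/- and 4 control mice were compared, grouped by their labels, with the Mfp2+/- mouse among the controls as in the study. The deposited values are counts of reads per gene symbol, which the authors had not normalized. The submitters' processing notes name FastQC 0.11.7, HISAT2, SAMtools 1.5, HTSeq 2.7.14 and the genome mm10, while neither the HISAT2 version nor the annotation or strand setting is given in the sources used here. Reads in no gene or otherwise not counted made up 59.2 to 66.9% of each library and stayed out of library sizes. A 3′ kit gives reads near transcript ends, so a gene is counted only where its annotated end is right.

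Counts were fitted in R 4.3.3 with edgeR 4.0.16 (TMM factors, filterByExpr, quasi-likelihood test, Benjamini-Hochberg adjustment over all 12516 genes tested, threshold 0.05). Log2 CPM used a prior count of 2. DESeq2 1.42.0, limma-voom (limma 3.58.1), other scaling factors, other filters (10 counts in every library, or no filter), a replicate block and left-out libraries were alternatives. All 73 symbols had a position in GENCODE on GRCm38, and 60 had a promoter in RefSeq on GRCm38.p6. Every gene past the threshold is given with its value in each library, and of those not past it the most abundant of each family. Of the other pathway genes, the 4 with the smallest adjusted p in each direction are given. Other genes named were chosen after their values were seen. The members and lists were chosen with earlier results of these data known. Each library is 1 mouse, so p-values measure the spread between mice. Ratios of genes below the filter used summed counts with exact binomial intervals at 95% and a floor of 3 counts.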

Additional observations from a re-analysis of the deposited data

Results flagged for a closer look

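In 9 of 114 combinations of a gene and a group, the highest or lowest library was farther from its neighbour, as a share of the group's range, than the critical value for 4 samples. About 5.7 such combinations would come from 1 in 20. The gap as a share of the range was 0.969 for Slit1, 0.938 for Ephb1 and 0.833 for Nrp2, each with Mfp2-/- replicate 4 as the highest library. It was 0.931 for Unc5b and 0.879 for Plxnb1, with Mfp2-/- replicate 2 as the highest. For Sema4g it was 0.845, with Mfp2-/- replicate 2 as the lowest, and for Ntn3 it was 0.847, with Mfp2-/- replicate 3 as the lowest. Among controls, the gap was 0.848 for Robo2 with replicate 3 as the lowest library, and 0.852 for Efna5 with replicate 2, the Mfp2+/- mouse, as the lowest.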

How the results depend on the processing

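Of the 22 axon guidance genes that passed, 12 passed in the same direction under every alternative that tested them, namely Efna5, Efnb1, Efnb2, Epha4, Ephb2, Plxna1, Plxna2, Plxnb2, Plxnc1, Sema3b, Sema3f and Sema4a. All 18 tested each of them except Sema3b, which the filter on 10 counts in every library left out. The number of axon guidance genes passing ranged between 16 and 23 when 1 library was left out, and was 26 with upper-quartile factors or total counts alone, 20 with DESeq2 and 21 with limma-voom. Calls over all genes varied between these fits as well. With all libraries they were 1728 upward and 1649 downward. Without Mfp2-/- replicate 3 they were 1201 and 1283, and without Mfp2-/- replicate 2 they were 1746 and 1778. Upper-quartile factors and total counts alone moved the median of all genes to 0.12 on the log2 scale and the share of upward calls to 64.2 and 65.0%, in place of 51.2%. No gene that passed changed its direction, while Dcc and Unc5b, which did not pass, changed sign without Mfp2-/- replicates 2 and 3 (0.29 and -0.10). Epha5, Sema3a, Sema4b, Slit2 and Unc5a, which did not pass either, changed sign under some other alternative. Of the 35 genes that did not pass, 16 passed under some alternative. The other axon guidance genes passing numbered 26 to 43 when 1 library was left out, with 26 without control replicate 2, in place of 40, in a fit where calls over all genes numbered 2475 in place of 3377, and the cause was not tested. Samples with the same replicate number did not deviate together (correlations of 0.08, -0.16, 0.25 and 0.21), and a replicate block gave 19 axon guidance genes, 16 higher and 3 lower. Over all 12516 genes the block gave 1355 calls upward and 1490 downward. Depth limits the 16 genes below the filter, for which intervals of the ratio leave out the spread between mice.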

Other observations

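Counted library by library, Mfp2-/- replicate 2 was the lowest of the 4 Mfp2-/- libraries for 21 of the 57 tested axon guidance genes (36.8%) and for 36.6% of all genes tested, and replicate 4 was the lowest for 18 (31.6%) and for 25.1% of all genes tested. Mfp2-/- replicate 1 was the highest of the 4 for 18 of the 57 genes (31.6%), beside 23.3% of all genes tested, and Mfp2-/- replicate 2 was the highest for 16 (28.1%), beside 33.0% of all genes tested. The 73 genes together summed to 2579, 1763, 2019 and 2447 CPM in Mfp2-/- replicates 1 to 4 and to 1691, 1789, 1609 and 1807 CPM in control replicates 1 to 4.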
